A study of Homo sapiens with 12 samples.

Results

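The genes described here are 38 interferon response genes out of the 60664 genes of a raw count table. They were listed with earlier results of these data known. A share of the set given beside that of all genes is therefore a description and not a test of the set. All 38 were matched to 1 Ensembl gene each, and all 38 were among the 17960 genes left after a filter on low counts. They were sorted by function into 5 sensors of foreign RNA, 8 signalling factors, 21 effectors and 4 genes of antigen presentation. The study asked how the stiffness of the growth surface alters transcription in SK-N-SH, an established human neuroblastoma line that holds neuroblast-like cells beside flat cells that grip the surface. Cells of this 1 line were cultured on substrates with a stiffness of 1, 8 or 30 kilopascals (kPa, where a lower value is softer), and total RNA of 4 libraries per stiffness was sequenced. The labels name no drug, infection, added interferon or genetic change for any group, and no culture time. They do not say whether the libraries of a stiffness were separate cultures, so the p-values measure only the spread between these libraries, which may be technical.

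Interferons are secreted proteins that warn cells of infection. Inside a cell, helicases such as RIG-I and MDA5 bind foreign RNA and switch on the transcription factors IRF3 and IRF7, which turn on interferon genes. Secreted interferon then acts through JAK kinases on a complex with STAT2 and IRF9, which binds the interferon-stimulated response element (ISRE) in the promoters of many genes, among them antiviral effectors and parts of the machinery that shows peptides to T cells. Many of these genes also have a basal level in cells that were never infected, and MHC class I is often low in neuroblastoma.

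The libraries differed in depth. Totals ran from 14317437 to 15896607 counts at 1 kPa and from 23896536 to 27820973 at 30 kPa. At 8 kPa replicate 1 had 14951116 counts and the others 24237571 to 25349320, so 5 libraries were shallow (the 4 at 1 kPa and 8 kPa replicate 1) and 7 were deep. Stiffness and depth therefore cannot be told apart between 1 and 30 kPa, and between 1 and 8 kPa only 8 kPa replicate 1 separates them. Neuroblastoma markers were present, with 7 of 8 tested and a sum of 412 to 738 CPM per library (CPM is the standard unit of a gene's counts relative to the library's normalized total), although TH, tyrosine hydroxylase, had at most 1 count in any library. Among 11 immune cell markers, TYROBP, NKG7, CLEC4C and LILRA4 had no count in any library, and the sum of all 11 lay between 0.793 and 1.68 CPM.

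To show what the interferon-stimulated genes share, promoter windows from 250 bases before to 50 bases after the start site were searched on both strands for the core of the ISRE, written here as GAAA, any 2 bases and GAAA again. The windows come from RefSeq on GRCh38.p14, and 30 of the 38 genes had one. The core was present in 21 of the 30 genes (70.0%) and in 4.38% of all 27305 genes with a window. It stood in 3 of 4 sensors, 1 of 5 signalling factors, 15 of 17 effectors and 2 of 4 antigen presentation genes. Among genes that passed the test in a pair of stiffnesses 9 of 12 held it, and among the other genes 12 of 18. A gamma-activated site core, TTC, any 3 bases and GAA, an element of interferon gamma responses, was in 9 of 30 genes (30%) against 9.38% of all genes, and overlaps with the ISRE core were not removed. A match is a string of letters and says nothing about binding in these cells. The stretches below are shown because they belong to the 9 genes that both held the core and passed a test. Each is read 5′ to 3′ on the strand of its gene, and capitals mark the core or its reverse complement (TTTC, any 2 bases, TTTC), with overlapping copies run together.
DDX60: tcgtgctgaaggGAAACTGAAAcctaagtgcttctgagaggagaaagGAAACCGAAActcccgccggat
DDX60L: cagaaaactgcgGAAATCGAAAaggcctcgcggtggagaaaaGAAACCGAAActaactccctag
IFIH1: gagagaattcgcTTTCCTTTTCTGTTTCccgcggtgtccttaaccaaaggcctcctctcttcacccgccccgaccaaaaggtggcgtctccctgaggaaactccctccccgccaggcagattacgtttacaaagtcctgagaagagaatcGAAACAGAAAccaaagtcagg
IFITM1: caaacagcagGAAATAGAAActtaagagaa
IFITM3: gGAAAAGGAAActgttgaGAAACCGAAAc
ISG15: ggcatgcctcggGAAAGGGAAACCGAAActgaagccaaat
PARP14: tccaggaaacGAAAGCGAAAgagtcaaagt
B2M: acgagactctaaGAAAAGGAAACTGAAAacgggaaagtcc
TAP1: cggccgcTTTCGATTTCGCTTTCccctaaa

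Each stretch ends before the RefSeq start site of its gene, and the positions are on GRCh38.p14. DDX60 has chr4:168318784-168318852 (minus strand), with 24 of its 69 bases in an exon of a longer DDX60 transcript in GENCODE v29. DDX60L has chr4:168480521-168480584 (minus), inside that gene and outside its exons. IFIH1 has chr2:162318685-162318855 (minus), with 19 of 171 bases in an IFIH1 exon and an overlap with GCA on the opposite strand. ISG15 has chr1:1013372-1013411 (plus), inside the gene as GENCODE draws it but outside exons, and B2M has chr15:44711361-44711400 (plus), upstream of the gene. Those of IFITM1 at chr11:313990-314019 (plus), IFITM3 at chr11:320885-320913 (minus), PARP14 at chr3:122680800-122680829 (plus) and TAP1 at chr6:32853816-32853845 (minus) lie in exons of longer transcripts of those genes. That of TAP1 also lies within PSMB9, an immunoproteasome gene on the other strand. ISG15, B2M, TAP1 and the far site of IFIH1 each carry 2 copies that overlap. DDX60 and DDX60L, neighbours on chromosome 4, each carry 2 separate copies, as does IFITM3. IFITM1 has a second copy nearer its start that is not shown. Of these genes PARP14, B2M, TAP1, DDX60, DDX60L and IFIH1 fell on 8 against 1 kPa, and ISG15 rose there. The calls of PARP14 and DDX60 were kept whichever library was dropped. Those of B2M, TAP1, DDX60L and IFIH1 each ended on dropping some single libraries, and that of ISG15 on dropping any. With a term for shallow or deep libraries in the fit, none of these calls remained.

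Levels of the 38 genes spanned about 3 orders of magnitude when divided by exon length (RPKM, CPM per kilobase of exon). The highest was B2M, the light chain of MHC class I, with a mean of 139 RPKM over the 12 libraries. IFITM3, a membrane protein that blocks virus entry, followed at 92.7 RPKM and HLA-C, an MHC class I heavy chain, at 67.2 RPKM. The lowest were the antiviral GTPase MX1 at 0.183 RPKM and OAS2, which makes the 2-5A messenger that activates RNase L, at 0.143 RPKM. Among sensors DDX60 was highest at 3.57 RPKM, and RIG-I (DDX58) and LGP2 (DHX58) stood at 0.51 and 0.199 RPKM. STAT2 led the signalling factors at 23.2 RPKM. Of other effectors, IFI6 had 9.99 RPKM, IFI44 6.49, IFIT3 5.27, ISG15 2.71 and IFIT1 1.018 RPKM. MX1 had 12 to 52 raw counts per library and OAS2 12 to 26, which limits what can be seen for them.

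**Figure D1:**
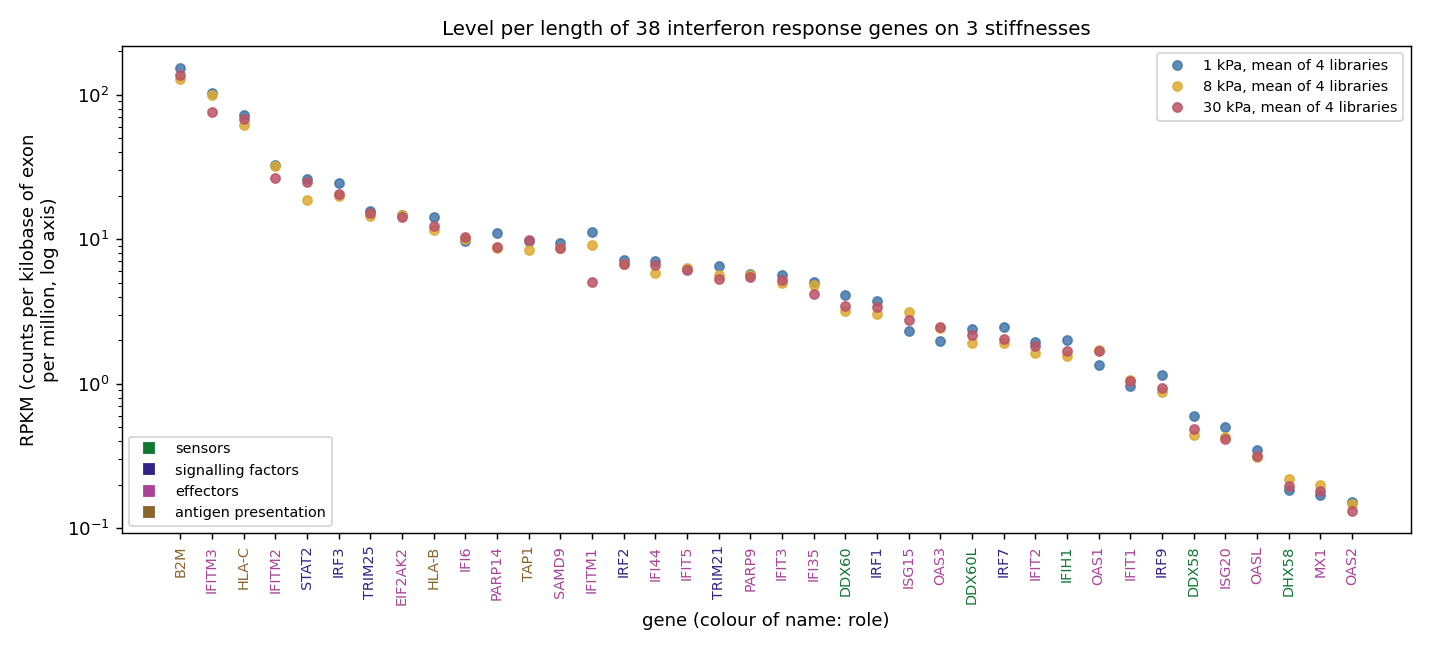
Mean level per exon length (RPKM, log axis) of each of the 38 genes at 1, 8 and 30 kPa, each point the mean of 4 libraries, ordered by the mean over all 12, with the name coloured by role. B2M (139 RPKM) is at the left and OAS2 (0.143 RPKM) at the right, and for most genes the 3 stiffnesses lie close together.

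On 8 kPa against 1 kPa, 10 of the 38 genes fell and 1 rose at an adjusted p under 0.05 in edgeR's quasi-likelihood test. This is 28.9% of the set, where 13.8% of all 17960 genes passed (5.6% lower and 8.17% higher). The genes that fell were the sensors IFIH1, DDX60 and DDX60L, the factors STAT2, IRF1 and IRF3, the effector PARP14 and the antigen presentation genes HLA-B, B2M and TAP1, and ISG15 was the one that rose. The changes were small, from -0.49 to 0.43 on the log2 scale, and the median over the 38 genes was -0.20 against -0.01 over all genes. By role, 3 of 5 sensors, 3 of 8 signalling factors and 3 of 4 antigen presentation genes fell, while of 21 effectors 1 fell and 1 rose. All 8 signalling factors and all 4 antigen presentation genes had a negative fold change, 29 of the 38 genes did, and the median of the effectors was -0.05.

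On 30 kPa against 1 kPa, 4 of the 38 genes fell and none rose, which is 10.5% where 2.43% of all genes passed (1.33% lower and 1.1% higher). Those that fell were DDX60, PARP14 and the virus entry blockers IFITM1 and IFITM3. At an unadjusted p under 0.05 there were 12 of the 38 and 18.9% of all genes, and the median over the set was -0.12 against 0.00 over all genes. This comparison uses the same 1 kPa libraries as that of 8 kPa, so the calls are not independent. On 30 kPa against 8 kPa edgeR called 0 of the 38 genes and 0% of all genes. At an unadjusted p under 0.05 there were 5 of the 38 and 17.9% of all genes. DESeq2 called 4 (STAT2 and TAP1 higher, IFITM1 and IFITM3 lower) and 2.39% of all genes, and limma-voom called 0 and 0%.

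**Figure D2:**
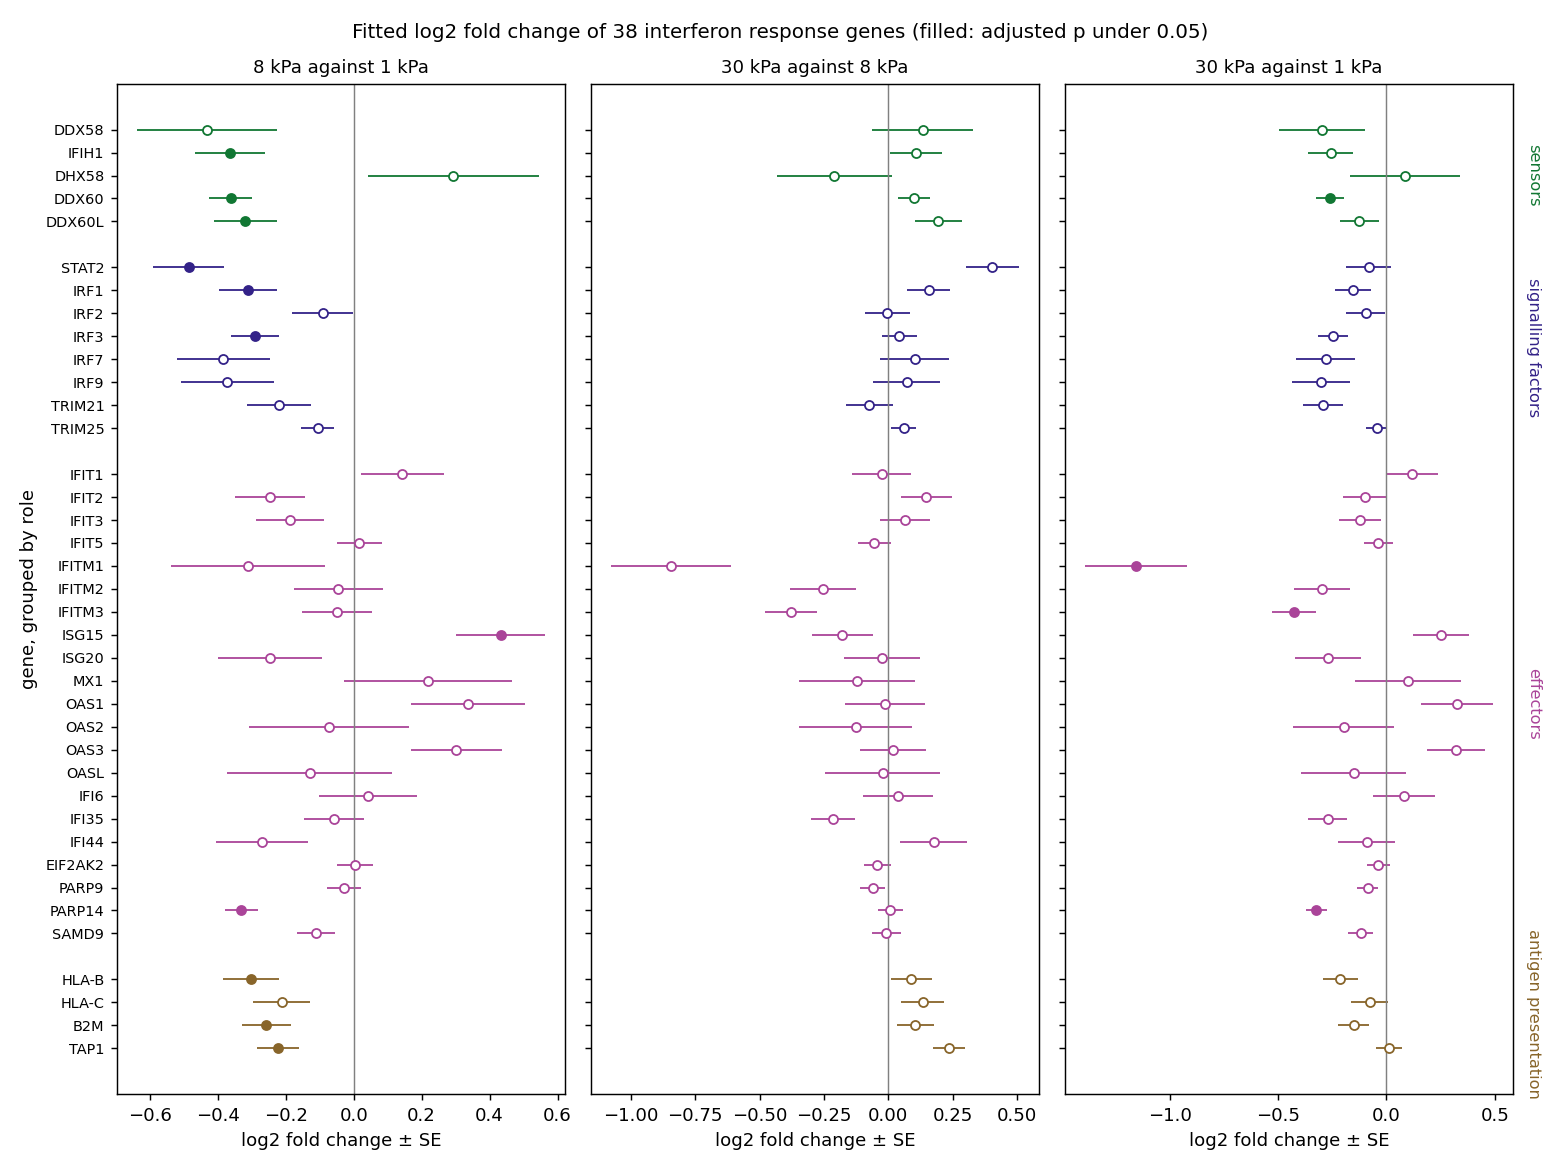
Fitted log2 fold change with its standard error (SE) of each gene in the 3 pairs of stiffnesses, grouped and coloured by role, filled where the adjusted p was under 0.05; each panel has its own horizontal scale. Sensors, signalling factors and antigen presentation genes lie mostly left of 0 on 8 against 1 kPa, effectors lie on both sides, and IFITM1 has the largest change on 30 against 1 kPa (-1.16).

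The sensors act first in the pathway. IFIH1 encodes MDA5, the helicase that binds long double-stranded RNA. Its level was 9.64, 9.48, 10.3 and 11.5 CPM in replicates 1 to 4 at 1 kPa, 6.69, 7.81, 8.25 and 8.88 CPM at 8 kPa, and 8.43, 8.08, 8.17 and 9.60 CPM at 30 kPa. All 8 kPa libraries were below all 1 kPa libraries, whereas 30 kPa replicate 4 reached into the 1 kPa range. The log2 fold change on 8 against 1 kPa was -0.36 ± 0.104 (SE, adjusted p = 0.0347), and on 30 against 1 kPa it was -0.26 ± 0.103 (adjusted p = 0.191). The call of IFIH1 on 8 kPa ended on leaving out any 1 kPa library or replicate 1, 2 or 3 at 8 kPa, with an adjusted p of up to 0.0942. It also ended with scaling by library size alone (0.0554), without the filter on low counts (0.0568) and in a fit of these 8 libraries alone (0.066).

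DDX60 is a helicase described as a helper of RIG-I-like sensing. It stood at 27.1, 27.4, 27.4 and 28.7 CPM at 1 kPa, at 19.2, 21.2, 21.8 and 23.7 CPM at 8 kPa, and at 23.1, 23.1, 23.1 and 23.2 CPM at 30 kPa. Neither stiffer group overlapped with the 1 kPa libraries, and the 30 kPa libraries lay inside the 8 kPa range. The fold change was -0.36 ± 0.0639 on 8 against 1 kPa (adjusted p = 0.0077) and -0.26 ± 0.0633 on 30 against 1 kPa (adjusted p = 0.0467). Leaving out each of the 12 libraries in turn kept the first call every time (adjusted p up to 0.0339). The second was kept only on leaving out 8 kPa replicate 1 or 4 (adjusted p up to 0.141), and it ended with scaling by library size alone (0.0829) and without the filter (0.122).

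DDX60L is the neighbouring paralog of DDX60 on chromosome 4, and only 0.618% of the 50-base stretches of DDX60 also occurred elsewhere. DDX60L had 25.6, 31.5, 29.9 and 28.7 CPM at 1 kPa, 21.4, 22.1, 21.0 and 28.1 CPM at 8 kPa, and 24.7, 27.0, 27.7 and 26.8 CPM at 30 kPa. Replicate 4 at 8 kPa stood above 1 kPa replicate 1, so these groups overlapped. The fold change on 8 against 1 kPa was -0.32 ± 0.0929 (adjusted p = 0.0371), and leaving out replicate 2 or 3 at 1 kPa, replicate 1, 2 or 3 at 8 kPa or replicate 3 at 30 kPa ended the call (adjusted p up to 0.116). So did scaling by library size alone (0.0513) and a fit of the 2 stiffnesses alone (0.0774). DDX58, which encodes RIG-I, had the lowest fold change of the sensors on 8 against 1 kPa at -0.43 ± 0.205, with an adjusted p of 0.167. Its 1 kPa values ran from 1.96 to 4.02 CPM, the highest being replicate 2, and its 8 kPa values from 1.72 to 2.17 CPM, so the groups overlapped. DHX58, which encodes LGP2, a relative without the signalling domain, had 0.559 to 0.789 CPM at 1 kPa and 0.525 to 1.13 CPM at 8 kPa and did not pass in any pair.

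**Figure D3:**
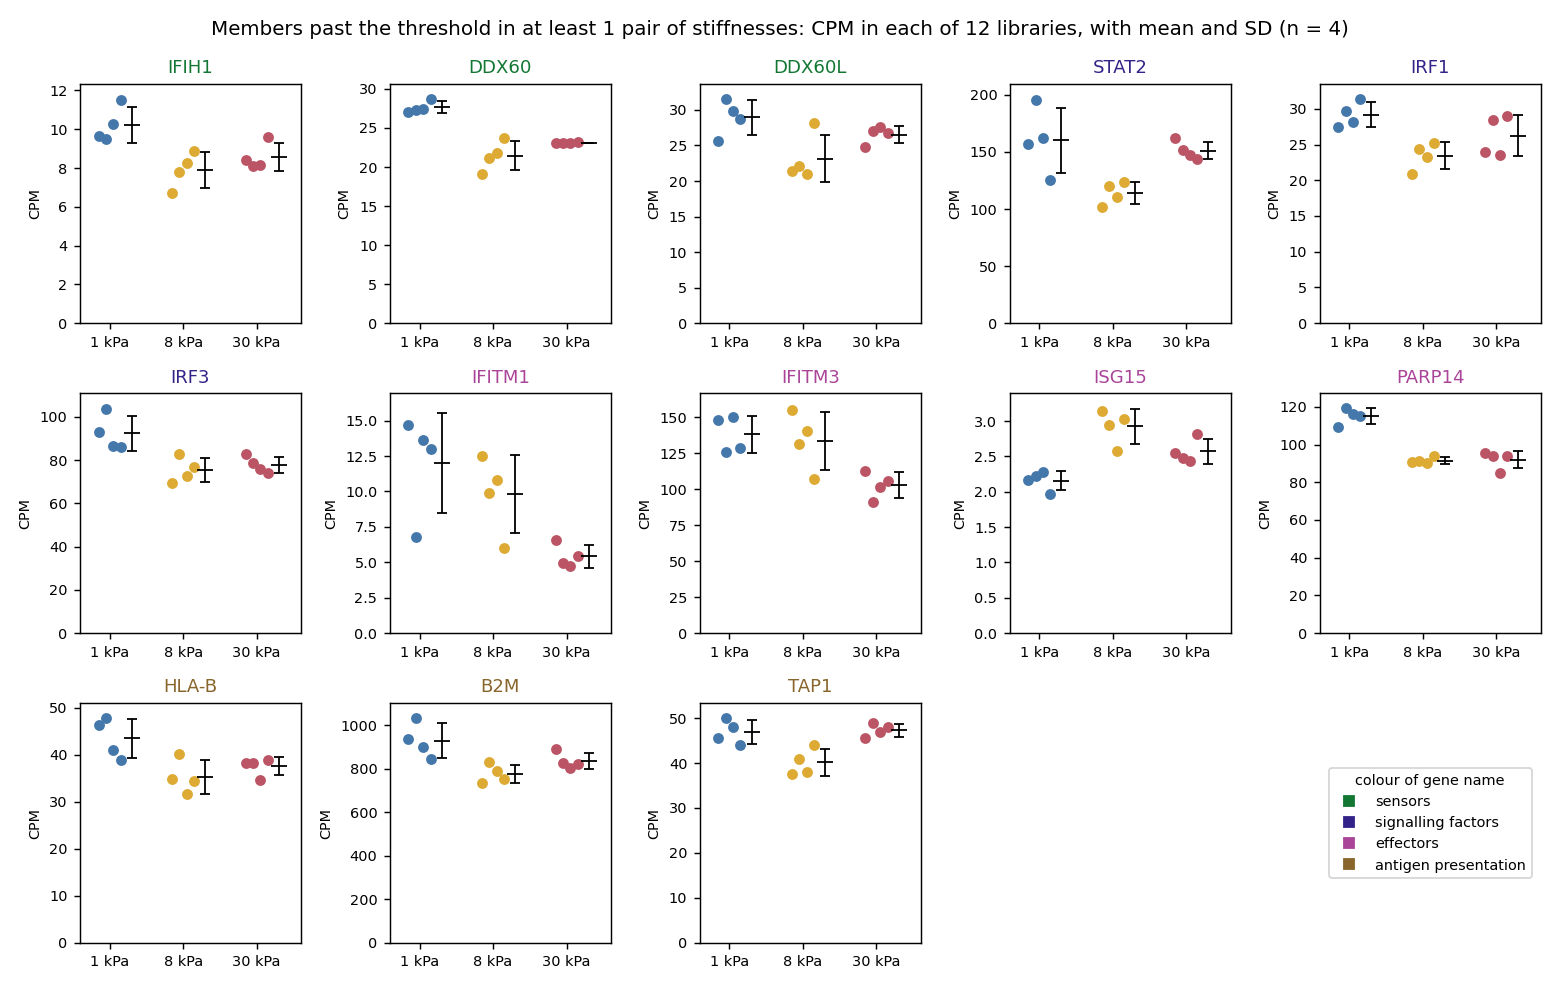
Level (CPM, axis from 0) in each of the 12 libraries of the 13 genes that passed the test in at least 1 pair of stiffnesses, with the mean and standard deviation (SD) of 4 libraries to the right of the points and the gene name coloured by role. DDX60, STAT2, IRF1, IRF3, B2M and PARP14 have no 8 kPa point at or above a 1 kPa point, whereas 8 kPa replicate 4 of DDX60L lies at 28.1 CPM.

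Among the signalling factors, STAT2 is the subunit of the ISGF3 complex that is used mainly by type I and III interferons. It had 157, 195, 162 and 126 CPM at 1 kPa, 102, 120.5, 111 and 124 CPM at 8 kPa, and 162, 152, 147 and 144 CPM at 30 kPa. The 8 kPa libraries were the lowest 4 of the 12, and the 30 kPa libraries lay within the 1 kPa range. The fold change was -0.49 ± 0.104 on 8 against 1 kPa (adjusted p = 0.0125), 0.40 ± 0.103 on 30 against 8 kPa (adjusted p = 0.133) and -0.08 ± 0.103 on 30 against 1 kPa (adjusted p = 0.727). The first was kept whichever of the 12 libraries was dropped (adjusted p up to 0.0497). On 30 against 8 kPa STAT2 passed with DESeq2 (adjusted p = 0.0223), without the filter on low counts (0.00766), in a fit of these 8 libraries alone (0.0316), and on dropping replicate 2 at 1 kPa (0.0384) or replicate 4 at 8 kPa (0.0378).

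IRF1 is an interferon-induced activator of antigen presentation genes. Its values were 27.5, 29.7, 28.1 and 31.4 CPM at 1 kPa, 20.9, 24.4, 23.3 and 25.2 CPM at 8 kPa, and 23.9, 28.5, 23.6 and 28.98 CPM at 30 kPa. The 8 kPa libraries were all below the 1 kPa libraries, and at 30 kPa replicates 1 and 3 lay in the 8 kPa range while replicates 2 and 4 lay in the 1 kPa range. The fold change on 8 against 1 kPa was -0.31 ± 0.0847 (adjusted p = 0.0292), a call that ended on dropping replicate 2 at 1 kPa or replicate 1 or 3 at 8 kPa (adjusted p up to 0.0846). A share of 22.0% of the 50-base stretches of IRF1 also occurred in other genes, mostly on the opposite strand, and the strand setting of the counts is not given, so its reads cannot be told apart from antisense reads there.

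IRF3 is the constitutive factor that is phosphorylated after RNA or DNA sensing. It had 92.9, 104, 86.6 and 86.0 CPM at 1 kPa, 69.6, 82.8, 72.4 and 76.8 CPM at 8 kPa, and 82.7, 78.6, 75.9 and 73.9 CPM at 30 kPa. Both stiffer groups were below every 1 kPa library and overlapped with each other. The fold change was -0.29 ± 0.0699 on 8 against 1 kPa (adjusted p = 0.0183) and -0.25 ± 0.0696 on 30 against 1 kPa (adjusted p = 0.0762). The first ended on dropping replicate 1 or 3 at 8 kPa (adjusted p up to 0.0658), and the second passed with DESeq2 (0.0282). IRF3 overlaps BCL2L12 on the opposite strand, and 15.1% of its 50-base stretches were shared.

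The other 5 signalling factors passed in no pair in edgeR's fit of all 12 libraries. TRIM25, the ubiquitin ligase that activates RIG-I, had the highest level of the role in CPM, with 148 ± 4.71, 138 ± 5.36 and 143 ± 5.41 CPM at 1, 8 and 30 kPa (mean ± SD of 4 libraries, as for every such triplet here). IRF7, the amplifier of interferon production, and TRIM21, a receptor for antibody-coated viruses, had no overlap between 8 and 1 kPa, with fold changes of -0.38 ± 0.137 and -0.22 ± 0.094 (adjusted p = 0.0749 and 0.126). IRF7 passed on 8 against 1 kPa with DESeq2 (adjusted p = 0.0479). IRF9, the DNA-binding subunit of ISGF3, had -0.37 ± 0.136 on 8 against 1 kPa (adjusted p = 0.0808). It passed there on dropping replicate 4 at 8 kPa (-0.51, adjusted p = 0.0143). IRF9 had the largest change of the role on 30 against 1 kPa, -0.30 ± 0.134 (adjusted p = 0.238). For IRF9, 43.8% of the stretches were shared with other genes, mainly an overlapping transcript on the same strand. IRF2, which can repress IRF1 targets, had 22.2 ± 1.82, 20.9 ± 2.24 and 20.8 ± 1.68 CPM at 1, 8 and 30 kPa.

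Among the effectors, PARP14, a mono-ADP-ribosyltransferase of the macrodomain family, changed in both comparisons with 1 kPa. It had 109, 119, 116 and 115 CPM at 1 kPa, 90.6, 91.6, 90.1 and 93.9 CPM at 8 kPa, and 95.5, 93.8, 85.2 and 93.7 CPM at 30 kPa. Every library of the stiffer groups lay below every 1 kPa library. The fold changes were -0.33 ± 0.0485 on 8 against 1 kPa (adjusted p = 0.00521) and -0.32 ± 0.0484 on 30 against 1 kPa (adjusted p = 0.00607), and on 30 against 8 kPa 0.01 with a 95% interval from -0.09 to 0.10, taken from the SE. Both calls were kept whichever of the 12 libraries was dropped, with an adjusted p of up to 0.0277 and 0.0303. PARP9, which shares a chromosome 3 cluster with PARP14, had 51.5 ± 1.52, 50.5 ± 1.2 and 48.5 ± 2.43 CPM at 1, 8 and 30 kPa and passed in no pair.

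The interferon-induced transmembrane proteins IFITM1, IFITM2 and IFITM3 sit in a cluster on chromosome 11 and hinder fusion of viral and cell membranes. IFITM1 had 14.7, 6.82, 13.7 and 13.0 CPM at 1 kPa, 12.5, 9.86, 10.8 and 6.02 CPM at 8 kPa, and 6.55, 4.92, 4.77 and 5.44 CPM at 30 kPa. All 30 kPa libraries were below all 1 kPa libraries, but 1 kPa replicate 2 was close to them and 8 kPa replicate 4 lay among them. The fold change was -1.16 ± 0.235 on 30 against 1 kPa (adjusted p = 0.0231), -0.84 ± 0.232 on 30 against 8 kPa (adjusted p = 0.145) and -0.31 ± 0.226 on 8 against 1 kPa (adjusted p = 0.371). The first ended on dropping replicate 1 or 3 at 1 kPa or replicate 2, 3 or 4 at 30 kPa (adjusted p up to 0.0921). With depth class as a term it was -0.66 (adjusted p = 0.596).

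IFITM3 had 148, 126, 150.0 and 129 CPM at 1 kPa, 156, 132, 140.4 and 107 CPM at 8 kPa, and 113, 90.9, 102 and 106 CPM at 30 kPa. The 30 kPa libraries were below all 1 kPa libraries, and 8 kPa replicate 4 again lay within the 30 kPa range. The fold change was -0.43 ± 0.102 on 30 against 1 kPa (adjusted p = 0.0447) and -0.38 ± 0.102 on 30 against 8 kPa (adjusted p = 0.138). The first was kept on dropping replicate 2 or 4 at 1 kPa or replicate 1 or 4 at 8 kPa and ended on dropping any of the other 8 libraries (adjusted p up to 0.134), and it ended when libraries were scaled by their totals alone. With depth class as a term it was -0.13 (adjusted p = 0.828). IFITM2 had 50.6 ± 7.90, 49.1 ± 6.67 and 41.1 ± 6.47 CPM at 1, 8 and 30 kPa and -0.30 ± 0.13 on 30 against 1 kPa (adjusted p = 0.228). Of the stretches of IFITM1, IFITM2 and IFITM3, 32.0%, 34.3% and 35.2% were shared with other genes. Most of this was with one another for IFITM1 and IFITM2, whose annotated exons overlap, while the main partner of IFITM3 was an antisense gene, so how the counting split their reads is uncertain. On 30 against 8 kPa IFITM1 and IFITM3 passed with DESeq2 (adjusted p = 0.0211 and 0.03) and on dropping replicate 4 at 8 kPa (0.022 and 0.0185).

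ISG15, a ubiquitin-like protein that is coupled to other proteins after interferon, was the only gene of the set that rose in any pair by the edgeR fit. Its values were 2.17, 2.23, 2.28 and 1.962 CPM at 1 kPa, 3.15, 2.94, 2.58 and 3.03 CPM at 8 kPa, and 2.55, 2.48, 2.44 and 2.82 CPM at 30 kPa. Both stiffer groups stood above every 1 kPa library. The fold change on 8 against 1 kPa was 0.43 ± 0.13 (adjusted p = 0.0434), and on 30 against 1 kPa 0.25 ± 0.13 (adjusted p = 0.361). These values rest on 31 to 74 raw counts per library, and the call ended whichever of the 12 libraries was dropped (adjusted p up to 0.112). It also ended with DESeq2 (0.0795), with limma-voom (0.0517), without the filter (0.125) and in a fit of the 2 stiffnesses alone (0.0836).

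The other 17 effectors passed in no pair in edgeR's fit of all 12 libraries. The IFIT proteins bind viral RNA, and IFIT1, IFIT2, IFIT3 and IFIT5 had fold changes of 0.14, -0.25, -0.19 and 0.02 on 8 against 1 kPa. OAS1 and OAS3, which make 2-5A, had 0.34 ± 0.167 and 0.30 ± 0.135 (adjusted p = 0.185 and 0.143), and their 8 kPa replicate 4, at 5.97 and 15.6 CPM, was the lowest of its group. Without that library both passed, at 0.47 (adjusted p = 0.0345) and 0.40 (0.0335). In that fit 19% of all genes passed, against 13.8% with all libraries. OAS2 and OASL, the third synthetase and an inactive relative, had -0.07 ± 0.236 and -0.13 ± 0.243. EIF2AK2 encodes PKR, the kinase that halts translation on double-stranded RNA, and it had the highest CPM of the effectors, with 157 ± 11.1, 158 ± 3.67 and 153 ± 3.73 at 1, 8 and 30 kPa. MX1 had 1.45 ± 0.505, 1.72 ± 0.379 and 1.56 ± 0.259 CPM, and ISG20, a nuclease, 3.68 ± 0.248, 3.12 ± 0.601 and 3.06 ± 0.360 CPM. SAMD9, which restricts poxviruses, had 64.7 ± 1.73, 59.8 ± 4.11 and 59.5 ± 2.90 CPM and no overlap between 8 and 1 kPa, with -0.11 ± 0.0566 (adjusted p = 0.199). IFI6, IFI35 and IFI44 had 0.04, -0.06 and -0.27 on 8 against 1 kPa, and IFI35 had -0.27 ± 0.0889 on 30 against 1 kPa with no overlap (adjusted p = 0.118).

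In antigen presentation, HLA-B is one of the classical MHC class I heavy chains. It had 46.3, 47.7, 41.1 and 38.9 CPM at 1 kPa, 34.8, 40.2, 31.6 and 34.3 CPM at 8 kPa, and 38.3, 38.3, 34.7 and 38.9 CPM at 30 kPa. Replicate 2 at 8 kPa stood above 1 kPa replicate 4, so the groups overlapped. The fold change on 8 against 1 kPa was -0.30 ± 0.0819 (adjusted p = 0.0285) and on 30 against 1 kPa -0.21 ± 0.0813 (adjusted p = 0.173). The first ended on dropping replicate 1 or 2 at 1 kPa or replicate 1 or 3 at 8 kPa (adjusted p up to 0.0963) and in a fit of the 2 stiffnesses alone (0.0644). HLA-C, a second heavy chain, had 180 ± 20.4, 155 ± 16.9 and 170.3 ± 5.67 CPM at 1, 8 and 30 kPa and -0.21 ± 0.0837 on 8 against 1 kPa (adjusted p = 0.101), and it passed on dropping replicate 4 at 1 kPa (0.0377) or replicate 2 at 8 kPa (0.0371). Of the stretches of HLA-B 17.8% were shared with other genes, mostly an antisense gene, and of HLA-C 5.7%, mostly other HLA genes. The strand setting is not given, so antisense reads cannot be told apart for HLA-B, and how reads were split among HLA genes is uncertain.

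B2M joins every class I heavy chain. It stood at 937, 1033, 898 and 844 CPM at 1 kPa, at 734, 829, 791 and 755 CPM at 8 kPa, and at 890.4, 828, 805 and 820.3 CPM at 30 kPa. All 8 kPa libraries were below all 1 kPa libraries, and 30 kPa replicate 1 lay between 1 kPa replicates 3 and 4. The fold change on 8 against 1 kPa was -0.26 ± 0.0713 (adjusted p = 0.0313), which ended on dropping replicate 1, 2 or 3 at 1 kPa or replicate 1 or 3 at 8 kPa (adjusted p up to 0.0948) and in a fit of the 2 stiffnesses alone (0.0709). On 30 against 1 kPa it was -0.15 ± 0.0712 (adjusted p = 0.27). None of the stretches of B2M were shared with another gene.

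TAP1 is one of the subunits of the peptide pump that feeds class I molecules. It had 45.6, 50.1, 47.9 and 44.1 CPM at 1 kPa, 37.5, 40.9, 37.95 and 44.1 CPM at 8 kPa, and 45.5, 48.9, 47.0 and 47.9 CPM at 30 kPa. Replicate 4 at 8 kPa reached the lowest 1 kPa library, and all 30 kPa libraries were above all 8 kPa libraries. The fold change was -0.22 ± 0.0618 on 8 against 1 kPa (adjusted p = 0.0308), 0.24 ± 0.0607 on 30 against 8 kPa (adjusted p = 0.133) and 0.01 ± 0.0612 on 30 against 1 kPa (adjusted p = 0.941). The first ended on dropping replicate 2 or 3 at 1 kPa or replicate 1, 2 or 3 at 8 kPa (adjusted p up to 0.0987), without the filter (0.0827) and in a fit of the 2 stiffnesses alone (0.0677). On 30 against 8 kPa TAP1 passed with DESeq2 (0.029) and on dropping replicate 4 at 8 kPa (0.0242). An antisense gene shares part of TAP1, with 9.78% of its stretches found elsewhere.

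**Figure D4:**
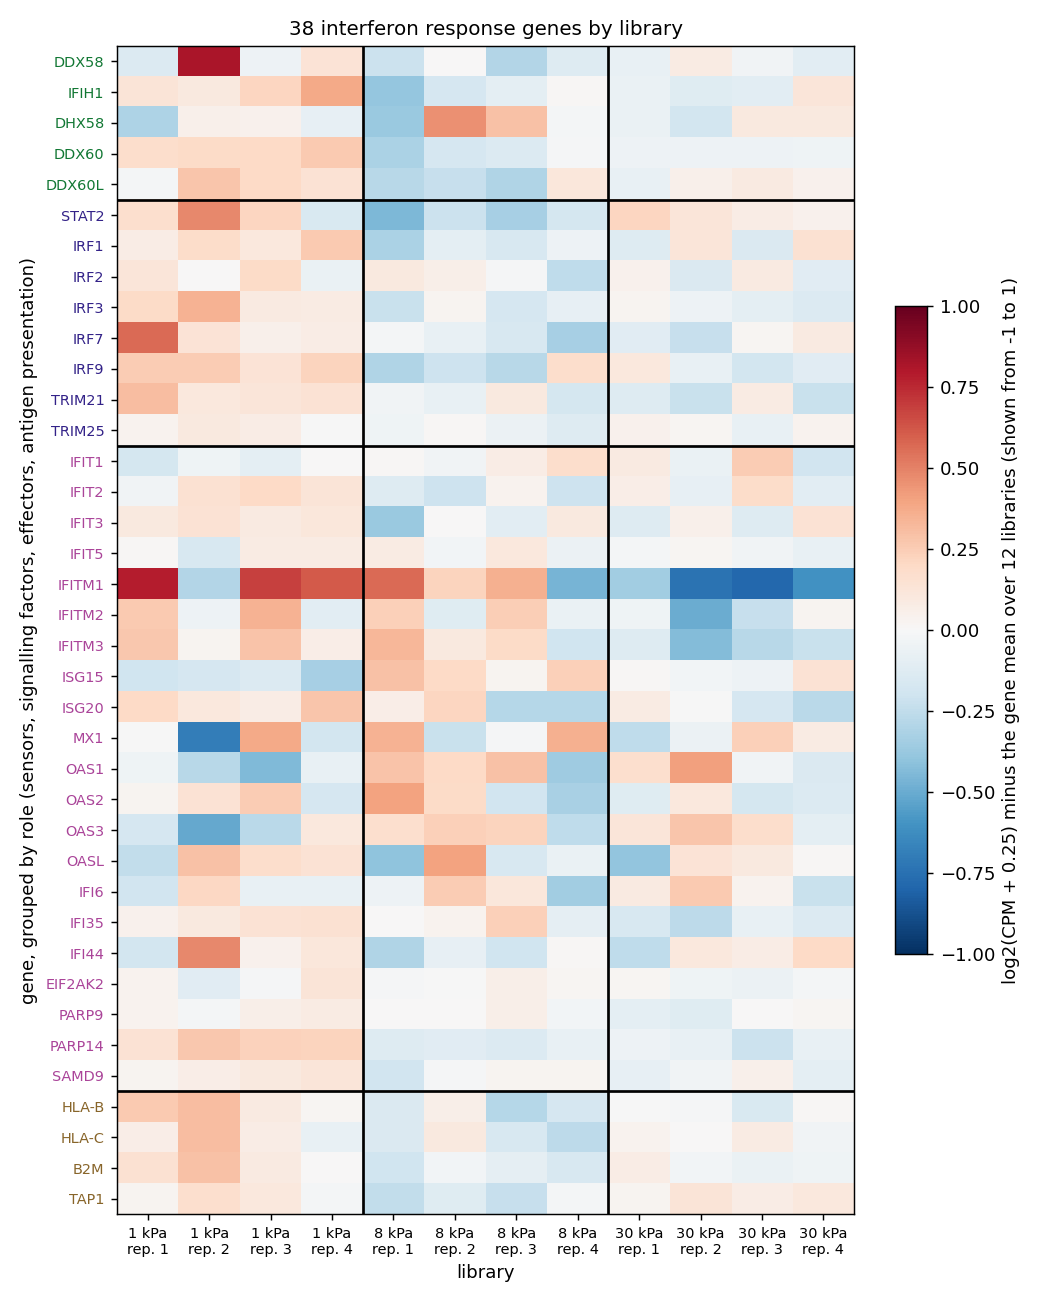
Each gene's log2(CPM + 0.25) in each of the 12 libraries minus its mean over all 12, grouped by role and by stiffness, with the colour scale running from -1 to 1. The upper blocks are mostly red at 1 kPa and blue at 8 kPa, the IFITM genes are blue at 30 kPa, and DDX58 at 1 kPa replicate 2 and IRF7 at 1 kPa replicate 1 stand out in their groups.

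Tested over the 3 stiffnesses at once, 7 of the 38 genes differed (DDX60, STAT2, IRF3, PARP14, IFITM1, IFITM3 and TAP1), and 9.16% of all genes did. A further test asked whether the middle stiffness stood off the mean log2 level of the softest and the stiffest. There 4 of the 38 genes were lower on 8 kPa and none was higher, with 7.08% of all genes passing in either direction. STAT2 departed by -0.44 ± 0.091 (adjusted p = 0.0275), DDX60 by -0.23 ± 0.0552 (0.0319), TAP1 by -0.23 ± 0.0534 (0.0307) and PARP14 by -0.17 ± 0.0421 (0.0351). Without the filter the calls of DDX60 (0.054) and PARP14 (0.0926) ended, and that of PARP14 also ended with scaling by library size alone (0.054). The fold change on 30 against 8 kPa was 0.01 for PARP14, and that on 30 against 1 kPa was -0.08 for STAT2 and 0.01 for TAP1. Dropping replicate 1, 2 or 3 at 8 kPa or replicate 1 or 2 at 30 kPa left none of the 38 called in this test. At an unadjusted p under 0.05 in edgeR there were 10 to 14. Of all genes these fits called 0, 176 and 0 for 8 kPa, and 0 and 1 for 30 kPa. Without 1 kPa replicate 3 edgeR called 1 of the 38 and 2.51% of all genes, and without 30 kPa replicate 3 it called 2 and 1.44%. Without 8 kPa replicate 4 it called 9 of the 38 (8 lower, 1 higher) and 15.7% of all genes. In the test over all stiffnesses the count was 2 on dropping replicate 1 or 3 at 1 kPa or replicate 3 at 8 kPa. Of all genes 2.15%, 2.4% and 1.26% passed in those fits. The count was 3 on dropping 8 kPa replicate 1 (2.08% of all genes) or 30 kPa replicate 3 (4.05%). It was 4 on dropping 30 kPa replicate 2 (5.83%) and 11 on dropping 8 kPa replicate 4 (17.7%).

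Counts of the pairs also moved with single libraries. On 8 against 1 kPa the 11 calls became 7, 4 and 6 on dropping replicates 1, 2 and 3 at 1 kPa. Of all genes 8.66%, 6.01% and 7.76% passed in those fits, against 13.8% with all libraries. The calls became 3 on dropping replicate 1 or 3 at 8 kPa, with 4.22% and 2.93% of all genes. They became 13 (11 lower, 2 higher) on dropping replicate 4 at 8 kPa, with 19% of all genes. DDX60, STAT2 and PARP14 passed in all 12 fits that left out 1 library. On 30 against 1 kPa the 4 calls became 1 on dropping replicate 1 or 3 at 1 kPa or replicate 2, 3 or 4 at 30 kPa. Of all genes 0.275% to 1.19% passed in those fits. The 4 calls became 2 on dropping replicate 2 or 3 at 8 kPa or replicate 1 at 30 kPa. There 1.23% to 1.7% of all genes passed. On 30 against 8 kPa 2 of the 38 and 1.02% of all genes passed on dropping 1 kPa replicate 2. On dropping 8 kPa replicate 4, 5 of the 38 and 5.63% of all genes passed. With no model, all 8 kPa libraries lay below all 1 kPa libraries for 10 of the 38 genes, where 7.36% of all genes did so, and above for 1, where 9.41% did. All 30 kPa libraries lay below all 1 kPa libraries for 9 genes (6.06% of all genes) and above for 1 (5.33%). All 30 kPa libraries lay above all 8 kPa libraries for STAT2 and TAP1 (4.79% of all genes), and below for none of the 38 (6.5%).

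Depth class moved with stiffness, and only 8 kPa replicate 1 could be set against 1 kPa libraries of like depth. With depth class as a term, the contrast of 8 against 1 kPa therefore rests on that single library, which also entered the test that called the 11 genes. There edgeR called 0 of the 38 and 0 of all genes, with 14 of the 38 and 4299 of all genes at an unadjusted p under 0.05. The fold changes were -0.61 for IFIH1, -0.53 for DDX60, -0.65 for STAT2, -0.35 for PARP14 and -0.32 for TAP1, with adjusted p-values from 0.0643 to 0.184 over the 11 genes. Read directly, that library lay below all 1 kPa libraries for 24 of the 38 genes (63.2%) and for 30.6% of all genes. It lay above all of them for 6 of the 38 (IFIT1, IFITM3, ISG15, OAS1, OAS2 and OAS3) and for 5379 of the 17960 genes. The fold change of ISG15 with the depth term was 0.55. On 30 against 1 kPa the same term left 0 of the 38 and 0 of all genes called in edgeR, with 7 and 1763 at an unadjusted p under 0.05. The fold changes of the 4 genes called without it were -0.34 for PARP14 and -0.48 for DDX60 (adjusted p = 0.444 for each), -0.66 for IFITM1 and -0.13 for IFITM3.

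Levels of cell type markers were compared between the stiffnesses as well. The summed level of 7 fibroblast markers, all present in this line, was 2220 to 2450 CPM at 1 kPa, 1910 to 2120 CPM at 8 kPa and 1960 to 2190 CPM at 30 kPa, so both stiffer groups lay below the 1 kPa libraries. That sum rests mostly on COL3A1, COL1A1 and LUM, with means of 856, 651 and 508 CPM at 1 kPa. On 8 against 1 kPa none of the 7 passed, where 13.8% of all genes did, and their lowest adjusted p was 0.0685. On 30 against 1 kPa 1 of the 7 passed, where 2.43% of all genes did. This was COL3A1, a fibrillar collagen, which fell by 0.52 on the log2 scale. The collagens COL1A1 and COL1A2 had 0.22 and 0.08 there. The summed level of the neuroblastoma markers was 412 to 626 CPM at 1 kPa, 514 to 738 CPM at 8 kPa and 557 to 643 CPM at 30 kPa, and these ranges overlapped. The median change of the 7 tested was 0.32 on 8 against 1 kPa and 0.18 on 30 against 1 kPa. One of them, PHOX2A, a transcription factor of sympathetic neurons, rose on 8 against 1 kPa by 0.49 and on 30 against 1 kPa by 0.52 on the log2 scale. Their part in the interferon results was not tested, and in bulk RNA fewer cells of a type and less RNA per cell cannot be told apart.

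The rest of the pathway was described from lists of genes outside the set, and their counts stand beside 5.6% of all genes lower and 8.17% higher on 8 against 1 kPa, and 1.33% and 1.1% on 30 against 1 kPa. No transcript of 9 interferon genes passed the filter, 5 of the 9 had no count in any library, and their sum was at most 0.168 CPM in a library, with IFNB1, interferon beta, at 1 count in each of 2 libraries. Of 11 receptor and JAK-STAT genes 1 fell on 8 against 1 kPa: IFNAR2, the signalling chain of the type I receptor, had 16.3 ± 1.14 CPM at 1 kPa and 13.1 ± 0.725 CPM at 8 kPa (-0.31 ± 0.072, adjusted p = 0.0155). Of 12 tested adaptors and kinases of nucleic acid sensing 1 fell: STING1, the adaptor of DNA sensing, had 65.6 ± 8.28 and 49.3 ± 6.37 CPM (-0.41 ± 0.098, adjusted p = 0.0183). The other 10 receptor and JAK-STAT genes and the other 11 sensing genes did not pass on 8 against 1 kPa.

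Of 14 tested further antigen presentation genes 2 fell and 0 rose on 8 against 1 kPa. Of all genes 5.6% fell there and 13.8% passed in either direction. TAPBP, tapasin, which loads peptides onto class I, had 181 ± 14.3, 135 ± 8.62 and 153 ± 6.66 CPM at 1, 8 and 30 kPa (-0.42 ± 0.0649, adjusted p = 0.00552). HLA-E, a ligand of NK cell receptors, had 143 ± 14.1 and 119 ± 10.7 CPM (-0.26 ± 0.0747, adjusted p = 0.034). Among 28 tested further interferon-stimulated genes 3 fell and none rose, namely HERC5, the ligase that attaches ISG15 (-0.26), PARP12 (-0.33) and the helicase ZNFX1 (-0.20), and the median of the list was -0.11. With so few calls, neither count was read as a result about its list. Of 8 negative regulators PTPN11, the phosphatase SHP2, rose by 0.21 and PIAS2, an inhibitor of STAT proteins, fell by 0.20. On 30 against 1 kPa the calls in these lists were IFNGR2 (-0.26), a chain of the interferon gamma receptor, TBK1 (-0.18), the kinase of IRF3, and PIAS2 (-0.23), all lower. On 30 against 8 kPa edgeR called none of the tested genes of these lists.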

How the data were processed

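Total RNA of SK-N-SH cells was sequenced, and the authors deposited raw counts per gene for 12 libraries. The aligner was HISAT2 and the build GRCh38, per the submitters' processing notes. The counter, annotation, strand setting and filters are not given in the sources used here. Groups came from the sample titles. The 38 genes and the role and pathway lists were chosen with earlier results of these data known. Symbols were matched by Ensembl identifier, DDX58 by its GENCODE v29 name, and exon lengths and 50-base sharing used GENCODE v29.

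The counts went into edgeR 4.0.16 in R 4.3.3: filterByExpr, TMM scaling, 1 quasi-likelihood fit of all 12 libraries with stiffness as the only term, and Benjamini-Hochberg adjustment over 17960 genes with a threshold of 0.05. Adjusted p-values come from this test where no other is named. CPM use the totals after TMM, and the SE is the fold change over the root of F. The biological coefficient of variation was 0.0966. Totals of 14317437 to 27820973 counts set the counting error. The steps were tested on simulated data. No replicate pair agreed within counting noise.

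Full statistics were given for genes past the threshold in any pair. The rest were summarised by role, naming the highest and the most changed, and pathway genes were named where called. Alternatives were median-ratio or library-size scaling, no or a stricter filter (1 CPM), DESeq2 1.42.0, limma-voom (limma 3.58.1), the 2 stiffnesses alone, a replicate block, depth class as a term (limit 2e+07 counts) or within it, and leaving out each library.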

Additional observations from a re-analysis of the deposited data

Results flagged for a closer look

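Within each group of 4 libraries the highest and lowest value of each gene and of the library total were checked for a wide gap to the nearest other library. Of 117 groups 8 (6.84%) had one, and chance gives about 1 in 20. At 1 kPa replicate 1 was high for IRF7 (8.31 CPM, the next at 6.10) and for TRIM21 (13.9 CPM, the next at 12.3). At 8 kPa replicate 4 was high for DDX60L (28.1 CPM, the next at 22.1) and low for OAS3 (15.6 CPM, the next at 21.1), and replicate 1 had a low total (1.5e+07 counts). At 30 kPa replicate 3 was low for TRIM25 (135 CPM, the next at 145), PARP14 (85.2 CPM, the next at 93.7) and HLA-B (34.7 CPM, the next at 38.3).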

How the results depend on the processing

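No gene of the set changed direction under any alternative in a comparison in which it passed. Median-ratio scaling, the stricter filter and limma-voom kept the counts of the set within 1.5 times. For the other settings counts are given for the set, then for all genes, and the cause was not tested. On 8 against 1 kPa the fit of the 2 stiffnesses alone called 5 and 1068, depth class as a term 0 and 0, and the shallow libraries alone 0 and 0 (12 and 2952 at an unadjusted p under 0.05 in edgeR). On 30 against 1 kPa library size alone gave 2 and 263, and depth class 0 and 0. The whole table gave 875 without the filter and 1068 with DESeq2. On 30 against 8 kPa no filter gave 3 and 330, DESeq2 4 and 430, the 2 stiffnesses alone 1 and 61, and the deep libraries alone 0 and 2. Over all stiffnesses DESeq2 called 12 of the set, of which 35 had an adjusted p, and 3117 of all genes. Depth class gave 0 and 0 there (13 and 4030 at an unadjusted p under 0.05 in edgeR). For the departure of 8 kPa no filter gave 2 and 1604, and DESeq2 7 and 2296. Leaving out 1 library gave 3 to 13 genes of the set and 534 to 3563 of all genes on 8 against 1 kPa. It gave 0 to 5 and 0 to 1026 on 30 against 8 kPa, and 1 to 4 and 50 to 676 on 30 against 1 kPa. Over all stiffnesses it gave 2 to 11 and 230 to 3234, and for the departure 0 to 9 and 0 to 2870.

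Replicate numbers share no stated source. Deviations of same-numbered libraries correlated at -0.203 to 0.53, over 0.1 in 8 of 12 pairs, and those of the 36 other pairs at -0.461 to 0.38, over 0.1 in 8. Of the 12 libraries 6 correlated best with one of their own number. Since 4 pairs were not over 0.1, the numbers were not taken as pairs. With the replicate block the set had 11 calls on 8 against 1 kPa, 0 on 30 against 8 kPa and 5 on 30 against 1 kPa, 11 over all stiffnesses and 10 for the departure. In the pairs ISG15 (adjusted p = 0.0505) was no longer called, and HLA-C on 8 against 1 kPa (0.033) and IRF3 on 30 against 1 kPa (0.035) were. The whole table had 3273, 40 and 974 in the 3 pairs, 2626 over all stiffnesses and 2096 for the departure.

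Counts limit the low genes most: OAS2, MX1, OASL and DHX58 had 8 to 52 counts per library. No library at 1 kPa was deep and none at 30 kPa was shallow.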
